A study of Mus musculus with 3 samples.

Results

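The endoplasmic reticulum (ER) machinery that imports, folds and glycosylates secretory and membrane proteins was examined at the RNA level in sorted cells of the mouse large intestine. The members are 49 of the 24091 genes in each deposited table. They were taken by gene symbol, and no value enters the rule, although it was written with earlier results of these data known: the Srp, Sec61, Sec62, Sec63, Ssr, Spcs, Pdia and Tmed genes, 5 oligosaccharyltransferase genes, Calr, Canx and 6 genes of the unfolded protein response. The series holds 1 group of 3 libraries, replicates 1, 2 and 3, labelled as lymphatic endothelial cells of C57BL/6 large intestine that were sorted with markers including CD31, podoplanin and LYVE1. All 3 deposited tables carry the word Water in their names, which the labels do not explain. The labels themselves give no genotype, treatment, age or pooling, and leave unstated whether each library is another animal, so differences among replicates may be purely technical. Values are TPM (transcript abundance scaled to a fixed total per library), a measure meant to correct for gene length and library size. They carry no sequencing depth. How they were computed is not given in the sources used here, so the length correction could not be checked. Levels of genes of unlike length are compared below under that limit.

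Proteins bound for the secretory pathway are recognised by the signal recognition particle (SRP) as their signal sequence leaves the ribosome, and are passed to the Sec61 channel in the ER membrane. Signal peptidase then removes the signal, oligosaccharyltransferase (OST) attaches glycans, and chaperones and protein disulfide isomerases (PDIs) fold the chain before p24 cargo receptors help to load it into transport vesicles. When unfolded protein accumulates, the sensors IRE1, ATF6 and PERK raise the capacity of this machinery. Goblet cells of the colon and plasma cells secrete heavily and are known for large amounts of rough ER.

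The cell type label was checked against marker genes. All 11 lymphatic endothelial markers were detected throughout, meaning 1 TPM or more in each library, with a summed level of 1692, 1771 and 984 TPM in replicates 1, 2 and 3. Prox1 was the lowest of them, with 3.27, 4.82 and 2.63 TPM. Lyve1 and Pdpn, which are on this list, encode sorting markers, so their presence is no independent check of the label. The 12 epithelial markers summed to 17923, 21372 and 22732 TPM and the 10 markers of goblet and other secretory epithelium to 21821, 18789 and 20083 TPM, so both lists lay above the lymphatic list in each library. The 7 plasma and B cell markers found in the tables summed to 174, 280 and 324 TPM, and Tnfrsf17 was listed at 0 in replicate 1. The 7 fibroblast markers summed to 182, 124 and 448 TPM and the 7 macrophage markers to 239, 163 and 536 TPM. No value below assigns a transcript to one of these cell types, and their part in the members' levels was not tested. In bulk RNA, fewer cells of a type and less RNA per cell cannot be told apart.

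The 300-base promoter windows of 38 members are in the RefSeq table of GRCm38.p6 (mm10). They were searched because chaperone genes of this pathway are known to share a regulatory letter pattern. This pattern, the ER stress response element (ERSE), reads CCAAT, then 9 free bases, then CCACG, and was searched on both strands in the window from 250 bases before to 50 bases after the start site. It was found in 3 of 38 members with a promoter entry (7.89%), against 18 of the 10187 genes detected throughout that have an entry (0.177%). Over all 32851 promoter windows the share was 0.119%. The genes detected throughout include members. The pattern was chosen for being known in such chaperone genes, so the higher share among members is no independent result. The members with a match were the chaperone genes Calr and Canx and the isomerase gene Pdia6. Their windows are shown 5′ to 3′ on the gene's strand because no other of the 38 had a match. Capitals mark the match, which in Calr is read on the opposite strand.
Calr promoter (chr8:84846882-84847181, minus strand): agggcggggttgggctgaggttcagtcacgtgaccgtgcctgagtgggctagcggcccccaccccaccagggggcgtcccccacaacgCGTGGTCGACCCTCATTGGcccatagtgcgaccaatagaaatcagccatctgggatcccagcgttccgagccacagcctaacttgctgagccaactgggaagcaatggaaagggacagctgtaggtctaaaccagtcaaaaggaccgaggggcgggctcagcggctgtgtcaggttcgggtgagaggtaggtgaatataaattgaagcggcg
Canx promoter (chr11:50325624-50325923, minus strand): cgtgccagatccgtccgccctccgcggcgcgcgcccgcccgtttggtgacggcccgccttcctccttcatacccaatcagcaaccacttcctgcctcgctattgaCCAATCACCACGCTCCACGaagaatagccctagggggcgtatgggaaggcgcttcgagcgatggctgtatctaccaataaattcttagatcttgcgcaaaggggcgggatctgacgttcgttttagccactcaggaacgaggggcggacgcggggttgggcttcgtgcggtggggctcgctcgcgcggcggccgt
Pdia6 promoter (chr12:17266339-17266638, plus strand): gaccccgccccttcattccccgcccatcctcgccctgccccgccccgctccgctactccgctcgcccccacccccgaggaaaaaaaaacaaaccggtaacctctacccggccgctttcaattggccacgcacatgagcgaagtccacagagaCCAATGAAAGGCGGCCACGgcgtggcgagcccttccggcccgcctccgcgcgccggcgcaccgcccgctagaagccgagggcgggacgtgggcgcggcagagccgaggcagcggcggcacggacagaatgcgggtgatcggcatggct

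In Calr the element lies on the opposite strand, from -162 to -144 relative to the start site. In Canx it spans -145 to -127 and in Pdia6 -98 to -80, both on the gene's own strand. The matches are compared here, read in the direction of the element, with those of Hspa5 and Hsp90b1, which encode the ER chaperones BiP and GRP94. The fixed outer letters are in capitals and the free middle letters are in lower case.
Calr element: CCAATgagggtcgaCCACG
Canx element: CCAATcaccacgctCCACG
Pdia6 element: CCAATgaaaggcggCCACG
Hspa5 element: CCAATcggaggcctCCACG
Hsp90b1 distal element: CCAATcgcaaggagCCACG
Hsp90b1 proximal element: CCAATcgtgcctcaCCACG

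The middle letters differ among all 6 elements. The related patterns ERSE-II (ATTGG, 1 free base, CCACG, which shares the CCACG end with ERSE) and UPRE (TGACGTGG) were found in none of the 38 members, against 0.0785% and 0.982% of the genes detected throughout. A match is a run of letters and was not tested as a binding site. Ern2, Sec61a1, Tmed2, Ssr2, Ostc, Srp19, Tmed7, Tmed11, Spcs3, Srp68 and Atf6 had no entry.

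The members together took 0.707%, 0.727% and 0.696% of all TPM in replicates 1, 2 and 3, a mean of 0.710% ± 0.0156 (SD, n = 3). Their median level was 98.3, 107 and 97.2 TPM. The median of the 12862 genes detected throughout was 14.8, 18.0 and 17.8 TPM. Of the 49 members, 46 were detected throughout, where 53.4% of all genes did. Pdia2, Tmed8 and Tmed11 did not. A mean of 100 TPM or more was reached by 24 members, and 44 reached 10 TPM. The plot of every member by library shows this range, in which only Pdia2, Tmed8, Tmed11, Tmed6 and Ern1 had a mean under 10 TPM.

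**Figure D1:**
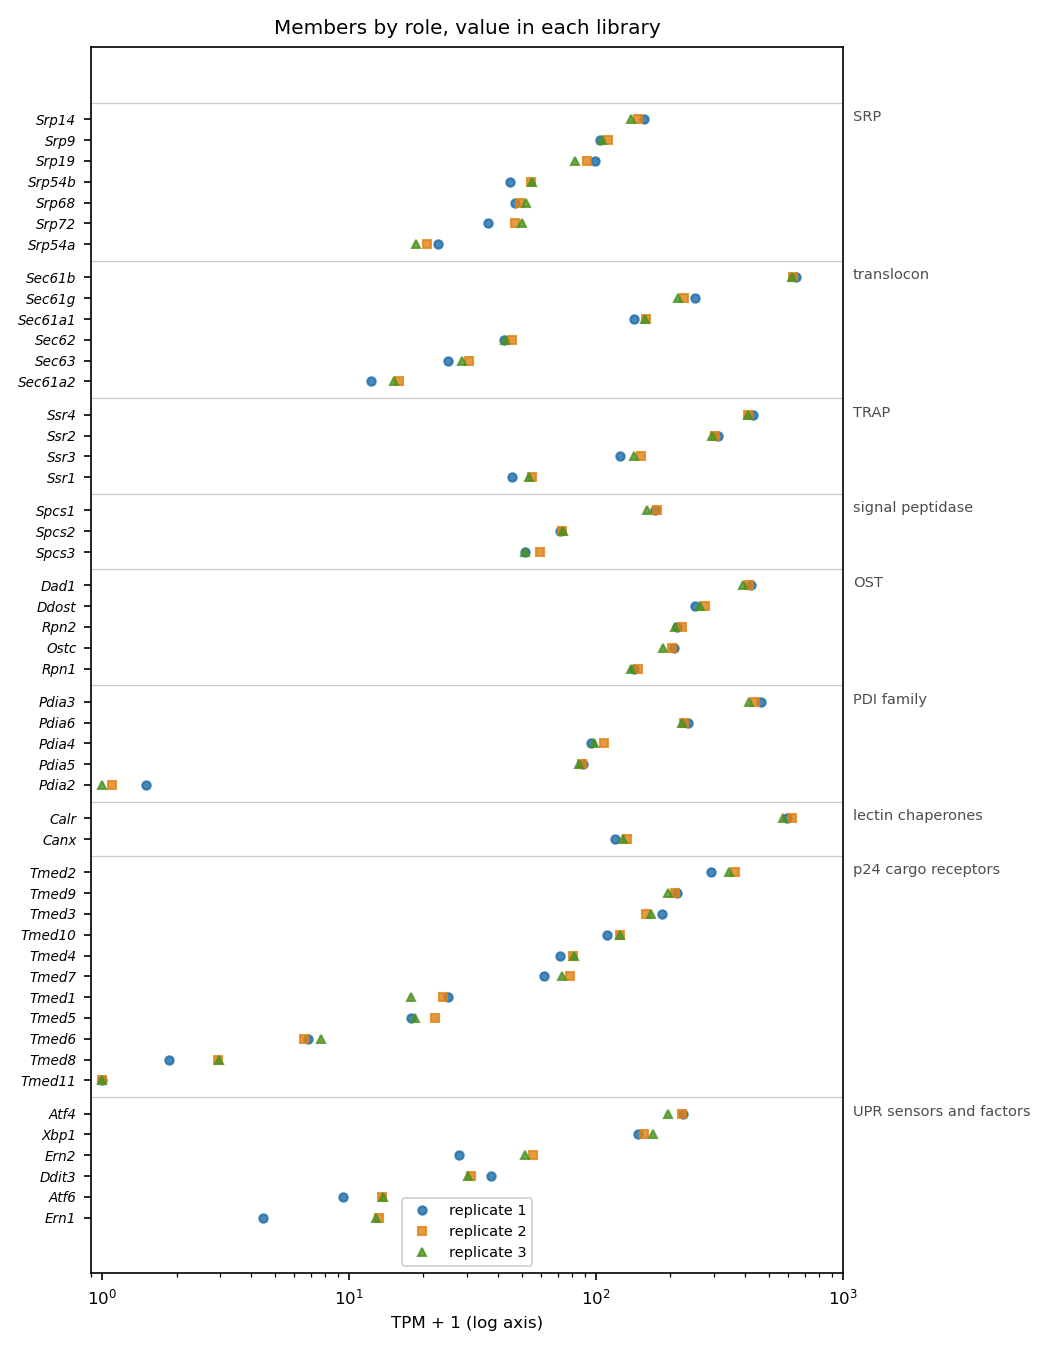
Value of each of the 49 members in each library (circles, squares and triangles for replicates 1, 2 and 3), as TPM + 1 on a log axis, grouped by role. Sec61b and Calr lie highest, the 3 libraries overlap closely for most genes, and replicate 1 stands to the left for Ern1 and Ern2.

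The SRP binds the emerging signal sequence through SRP54 and slows translation through the SRP9 and SRP14 pair. Srp14 had 155, 148 and 137 TPM in replicates 1, 2 and 3 and Srp9 103, 111 and 104 TPM, so Srp14 was higher in each library. Srp19, whose product helps to assemble the particle, had 98.3, 90.8 and 81.5 TPM. Srp68 and Srp72 encode a further pair of partners. Srp68 stood at 45.8, 48.4 and 51.0 TPM and Srp72 at 35.4, 45.8 and 49.0 TPM, and the ranges of this pair overlapped.

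Srp54 is present as copies on chromosome 12, Srp54a from 55080476 to 55115367 and Srp54b from 55155104 to 55189213. Srp54b had 43.7, 53.3 and 54.2 TPM and Srp54a 22.0, 19.7 and 17.7 TPM. Their coding sequences were 100% identical over 1512 bases in GENCODE M21, so how reads were divided between them is uncertain, and their sum was 65.7, 73.0 and 71.8 TPM. Counts, medians and correlations over the members keep the copies as separate genes unless stated. A further copy, Srp54c, with 99.6% identity, was not analysed here. With the copies summed, the subunits of the SRP differed by 3.38-fold in mean level, against 7.41-fold with the copies as separate genes. The receptor that docks the particle at the ER is made from Srpr (84.5 ± 10.4 TPM, n = 3) and Srprb (32.4 ± 2.76 TPM).

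Among translocon genes the small subunits of the channel were the most abundant. Sec61b (chromosome 4, 47474661 to 47483233) had 645, 628 and 623 TPM, the highest mean of all 49 members at 632 ± 11.5 TPM (n = 3). Sec61g had 249.9, 225 and 214 TPM. Sec61a1, which encodes the pore-forming subunit, had 142, 158 and 157 TPM, below both small subunits in every library. The ratio of Sec61b to Sec61a1 was 4.55, 3.96 and 3.97. The second gene for the pore, Sec61a2, had 11.2, 14.8 and 14.1 TPM, and its coding sequence was 78.5% identical to that of Sec61a1.

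Sec62 and Sec63 encode membrane partners of the channel that act in import after translation. Sec62 had 41.3, 44.5 and 41.7 TPM and Sec63 24.2, 29.5 and 27.6 TPM, both below Sec61a1 in each library. The translocon-associated protein (TRAP) complex aids the entry of some signal sequences. Its Ssr4 (chromosome X) had 432, 412 and 412 TPM and Ssr2 310.1, 303 and 294 TPM. Ssr3 had 124, 151 and 142 TPM and Ssr1 44.9, 54.3 and 52.6 TPM. The order Ssr4, Ssr2, Ssr3, Ssr1 held in all 3 libraries without overlap, and the outer genes differed by 8.28-fold in mean level, a wider range than among the member genes of the other 4 complexes.

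Signal peptidase has a catalytic subunit, made from Sec11a or Sec11c, and accessory subunits. Spcs1 had 172, 176 and 159 TPM, Spcs2 70.2, 71.7 and 72.6 TPM and Spcs3 50.4, 58.5 and 50.5 TPM, in this order in each library. Of the catalytic genes, which the membership rule does not take, Sec11c stood at 328 ± 15.5 TPM and Sec11a at 136 ± 13.1 TPM (n = 3). Each library thus held more Sec11c than any Spcs transcript.

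The 5 member genes of OST lay above 100 TPM in every library. Dad1 had 425, 415 and 395 TPM, Ddost 250.0, 274 and 263 TPM and Rpn2 212, 222 and 207 TPM. Ostc, a subunit of the form of OST that works beside the channel, had 206, 202 and 186 TPM, and its highest value lay just under the lowest of Rpn2. Rpn1 had 142, 147 and 138 TPM and was the lowest of the 5 in every library. From Dad1 to Rpn1 the mean levels of these 5 genes spanned 2.90-fold. The catalytic subunits outside the membership rule were lower, with 104 ± 9.28 TPM for Stt3a and 94.7 ± 12.5 TPM for Stt3b (n = 3). The small subunits Ost4 (384 ± 23.1 TPM), Tmem258 (373 ± 10.5 TPM) and Krtcap2 (334 ± 19.5 TPM) were near Dad1, and Magt1 was the lowest at 35.2 ± 6.05 TPM.

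Across the 22 subunit genes of SRP, Sec61, TRAP, signal peptidase and OST, the level fell with coding length (Spearman rho -0.50, Pearson r -0.49, both on log2 scales). Over all 49 members rho was -0.36 and r -0.30. The 12099 genes detected throughout with a coding length gave a rho of -0.30 and an r of -0.33, so a relation of this direction was present over all genes too. These are descriptions across genes of the same 3 libraries, and genes are not independent replicates. How TPM was corrected for length is not given, and the part of that step in this relation was not tested. Sec61b with 96 codons, Dad1 with 113 and Sec61g with 68 were among the high and short genes. Srp72 with 671 codons and Srp68 with 625 were among the low and long ones. Rpn2 with 631 codons was an exception, with a mean of 214 TPM above those of all SRP genes.

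**Figure D2:**
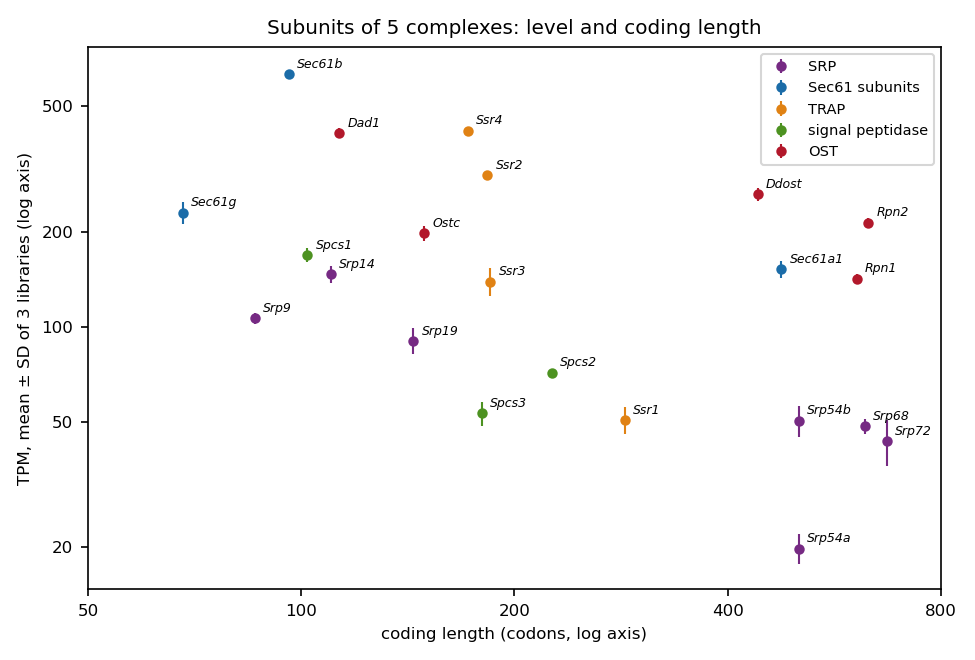
Mean TPM (points) with the SD of 3 libraries (bars) against coding length in codons, both on log axes, for the subunits of 5 complexes. Short subunits such as Sec61b and Dad1 lie high, and the long subunits of the SRP lie low, while Rpn1 and Rpn2 are long and above 100 TPM.

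PDIs form and reshuffle disulfide bonds. Pdia3, which works with the lectin chaperones on glycoproteins, had 464, 439.9 and 416 TPM. Pdia6 had 235, 227 and 221 TPM. Pdia4 had 94.2, 107 and 97.2 TPM and Pdia5 87.8, 86.6 and 84.4 TPM, and these last ones lay in the same order in each library. Pdia2, known mainly from pancreas, had 0.508 and 0.0918 TPM in replicates 1 and 2 and was listed at 0 in replicate 3.

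Further genes of the folding step were set beside them. Agr2, a PDI family gene typical of goblet cells, had 4374, 4083 and 4428 TPM, which was 9.42, 9.28 and 10.6 times the level of Pdia3. P4hb, the founding PDI, had 455, 499 and 505 TPM, and its range overlapped that of Pdia3. The chaperone genes Hspa5 (359 ± 8.59 TPM), Hsp90b1 (345 ± 25.4 TPM) and the prolyl isomerase gene Ppib (671 ± 53.9 TPM) were also high (n = 3). Pdilt, a testis gene, was listed at 0 in all 3 libraries. Of the 21 folding and oxidation genes outside the membership rule, 20 were detected throughout, and the list's median was 90.4 ± 2.59 TPM.

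**Figure D3:**
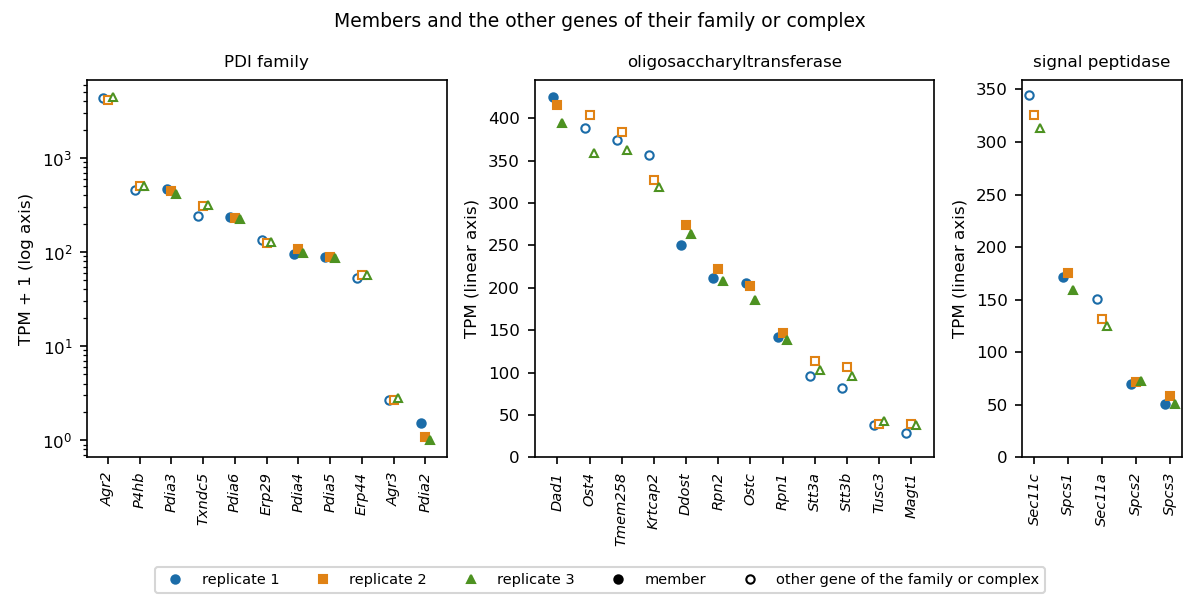
Members (filled) and other genes of the PDI family, OST and signal peptidase (open) in each library, as TPM + 1 on a log axis on the left and TPM on linear axes in the other panels. Agr2 lies about 10 times above Pdia3 and P4hb, and the catalytic OST genes Stt3a and Stt3b lie below the 5 member subunits.

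Calr and Canx encode calreticulin and calnexin, lectins that hold glycoproteins while they fold, the first soluble in the lumen and the other anchored in the membrane. Calr (chromosome 8, 84842088 to 84846931) had 591, 619 and 573 TPM and Canx 119, 133 and 127 TPM, so the soluble form was 4.99, 4.67 and 4.50 times as abundant. The glycan trimming and quality control list, from outside the membership rule, had 10 of 10 genes detected throughout and a median of 58.2 ± 2.03 TPM. It was led by Mlec (119 ± 22.9 TPM), Prkcsh (116 ± 2.09 TPM) and Lman2 (88.8 ± 10.5 TPM). Uggt2 was its lowest at 1.39 ± 0.187 TPM.

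The p24 proteins cycle between ER and Golgi as mixed complexes drawn from the alpha, beta, gamma and delta subfamilies. Tmed2, the beta member, had 292, 364 and 344 TPM and Tmed10, the delta member, 110.1, 125 and 124 TPM. In the alpha subfamily Tmed9 had 212, 207 and 195 TPM, Tmed4 70.5, 79.3 and 80.2 TPM, and Tmed11 was listed at 0 throughout. In the gamma subfamily Tmed3 had 184, 159 and 166 TPM and Tmed7 60.6, 77.5 and 72.0 TPM. Tmed7 overlaps Ticam2 on the same strand, so its value is uncertain.

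The other gamma genes were lower. Tmed1 had 24.1, 23.1 and 16.7 TPM, Tmed5 16.8, 21.3 and 17.5 TPM and Tmed6 5.80, 5.56 and 6.67 TPM. Tmed8, whose name places it with this family but which was counted in no subfamily here, had 0.867, 1.95 and 1.98 TPM. Summed by subfamily, a step chosen after the values were seen, alpha reached 283, 287 and 275 TPM and gamma 291, 286 and 279 TPM. The alpha and gamma sums thus overlapped, beta lay above both in each library (in replicate 1 by less than 1 TPM over gamma), and delta lay below the others at 119.5 ± 8.17 TPM (n = 3).

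**Figure D4:**
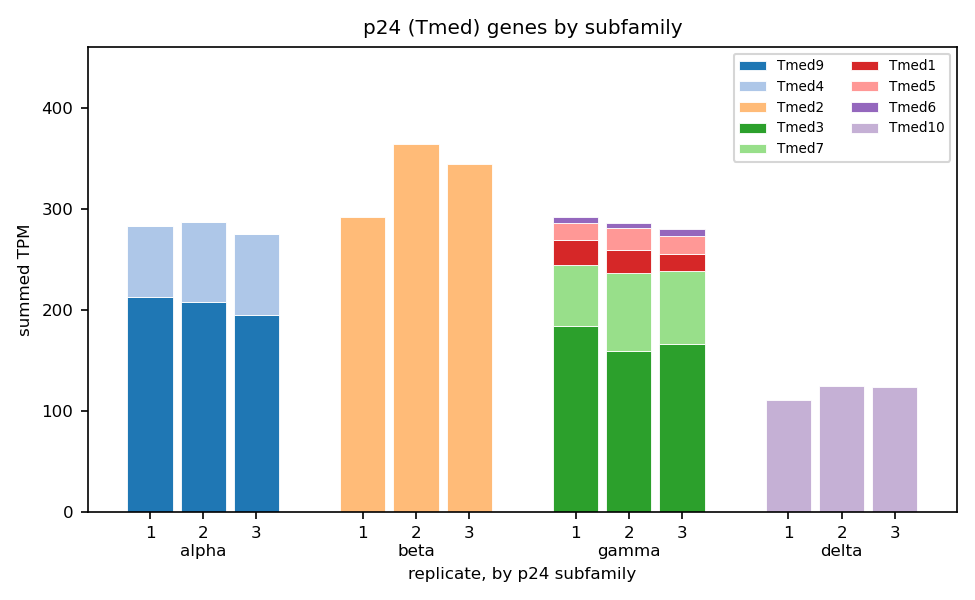
TPM of the Tmed genes stacked by p24 subfamily, with 1 bar for each replicate and a linear axis from 0. The alpha and gamma bars have like heights of 275 to 291 TPM, made up mainly of Tmed9 and Tmed3, and the delta bar is the lowest.

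The unfolded protein response runs through IRE1, encoded by Ern1 in most tissues and by Ern2 in mucus-secreting epithelium, through ATF6, and through PERK. Ern2 (Entrez 26918, chromosome 7, 122169893 to 122186239) had 26.8, 54.6 and 50.7 TPM. Ern1 (Entrez 78943, chromosome 11, 106397620 to 106487796) had 3.46, 12.2 and 11.8 TPM. Replicate 1 was the lowest for both, and Ern2 lay above Ern1 in every library without overlap. Atf6 had 8.42, 12.6 and 12.7 TPM, again lowest in replicate 1. Eif2ak3, which encodes PERK and falls outside the membership rule, had 11.0, 19.0 and 18.5 TPM.

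Of the factors downstream, Atf4 and Xbp1 were more abundant than any sensor gene. Atf4, the factor translated when PERK is active, had 224, 221 and 196 TPM, and Xbp1, the mRNA that IRE1 splices, 147, 156 and 169.8 TPM. Gene-level values do not separate spliced from unspliced Xbp1. Ddit3, which encodes CHOP, had 36.5, 30.2 and 29.3 TPM and was highest in replicate 1. Of the 13 further regulators and targets, 12 were detected throughout, and the list's median was 16.7 ± 3.53 TPM. Creb3l1, an ER-bound factor related to ATF6, led this list at 176 ± 29.7 TPM, followed by Mbtps1 (46.5 ± 7.09 TPM), whose protease cleaves ATF6, and Ppp1r15b (44.9 ± 8.03 TPM). Dnajb9, a target of XBP1, stood at 33.3 ± 2.41 TPM and Chac1, a target of ATF4, was the lowest at 1.08 ± 0.290 TPM.

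Pairs of genes with the same role were compared within libraries as differences of log2(TPM + 1). Ern2 exceeded Ern1 by 2.24 ± 0.35 (n = 3), with 2.64, 2.08 and 2.01 in replicates 1, 2 and 3, a 4.73-fold difference on this scale. Sec61a1 exceeded Sec61a2 by 3.42 ± 0.11 and Sec11c exceeded Sec11a by 1.27 ± 0.07. Stt3a exceeded Stt3b by 0.14 ± 0.07, or 1.10-fold, the smallest of the 4 differences. All 4 were above 0 in 3 of 3 libraries. The exact two-sided sign-flip permutation test gave p = 0.25 for each, also after Benjamini-Hochberg adjustment over the 4 pairs, and 0.25 is the smallest p that 3 libraries allow.

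Genes for disposal and onward transport were present as well. Of 12 genes for ER-associated degradation, 12 were detected throughout, and the list's median was 41.4 ± 3.02 TPM, led by Vcp (176 ± 7.23 TPM) and Herpud1 (105 ± 4.28 TPM). Derl3, also a plasma cell gene, was its lowest at 2.28 ± 0.457 TPM. Of 12 genes for vesicle coats and retrieval, 12 passed, with a median of 70.9 ± 3.59 TPM. Kdelr1 (200.4 ± 2.58 TPM) and Kdelr2 (165 ± 8.29 TPM), receptors that return chaperones to the ER, and the coat gene Sec13 (151 ± 7.13 TPM) led it, and Sec23a was the lowest at 21.7 ± 5.06 TPM. The 10 further targeting and translocation genes had a median of 49.6 ± 2.71 TPM, with Tram2 the lowest at 1.23 ± 0.941 TPM.

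Set among the 12862 genes detected throughout, the mean of Sec61b lay at percentile 98.2 and that of Calr at 98.1, with Pdia3 at 97.6, Ssr4 and Dad1 at 97.5 and Tmed2 at 96.8. At the other end, Atf6 lay at 37.6, Ern1 at 32.2 and Tmed6 at 22.3. By role, the median level was highest for the lectin chaperones at 360.1 ± 13.7 TPM, followed by TRAP at 221 ± 5.61 TPM and OST at 214 ± 7.64 TPM (n = 3). The ranges of TRAP and OST overlapped, while each library followed this order. It was lowest for the unfolded protein response genes at 38.0 ± 5.63 TPM and next lowest for the SRP at 51.1 ± 4.58 TPM. This order turned with the way of counting. With the Srp54 copies summed the SRP median was 80.2 TPM, above those of the p24 genes (70.0 TPM) and signal peptidase (71.5 TPM). With means in place of medians the SRP (72.1 TPM) lay below the unfolded protein response genes (77.9 TPM). For Sec61a2, Spcs1, Spcs2, Spcs3, Rpn2, Pdia3, Pdia6, Tmed1, Tmed5, Tmed8 and Ddit3, another protein-coding gene overlaps the locus on the opposite strand. The use of strand in counting is not given in the sources used here, so reads of such pairs may not have been separated.

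Most members varied little between libraries. Among the 47 members with a mean of 1 TPM or more, the median ratio of the highest to the lowest library was 1.13 on TPM + 1, where the 13606 genes with such a mean had 1.29. The median coefficient of variation was 6.96% for these members and 14.6% for these genes. The genes were not matched to the members for level. The members' median level was 101 TPM, against 16.9 TPM for the genes detected throughout (means of 3 libraries). The part of level in the comparisons of variation given here was not tested. A ratio of 1.5 or more was reached by 3 of the 47, Ern1, Ern2 and Tmed8, and by 24.5% of all genes with such a mean. All 3 were lowest in replicate 1, and without replicate 1 none of the members reached this ratio. The members summed to 7069, 7266 and 6957 TPM in replicates 1, 2 and 3. Replicate 3 had the lowest member sum and the lowest sum of the lymphatic markers. Its sums were the highest for the epithelial, plasma and B cell, fibroblast and macrophage markers, but not for those of goblet and other secretory epithelium. A relation of the member sum to these lists was not tested.

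Replicate 1 was below both other libraries for 25 of the 47 members and for 62.2% of all genes with a mean of 1 TPM or more. It was above both for 17 of the 47 members and for 17.0% of genes. Replicate 2 was above both for 21 of the 47 members and 41.7% of genes, and replicate 3 for 9 of the 47 and 41.3% of genes. These counts depend on the scaling. With median-of-ratios scaling, replicate 1 was below both others for 8 members (17.0%), against 37.2% of genes. It was above both for 34 members (72.3%), against 41.1% of genes. Ern1 and Ern2 kept their order under that scaling, with 3.84, 11.5 and 11.1 for Ern1 and 29.7, 51.6 and 47.7 for Ern2 in scaled TPM.

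The level in replicate 1 relative to the mean of replicates 2 and 3 moved with transcript length. Over 12606 genes with a mean of 1 TPM or more and a transcript length, Spearman's rho was -0.50 and Pearson's r -0.46, and over the 47 members rho was -0.56 and r -0.55, given as descriptions across genes of shared libraries. Genes with transcripts of up to 1000 bases had a median ratio of 1.07 and those above 6000 bases one of 0.704. All 5 members above 6000 bases, Ern1, Atf6, Tmed8, Sec63 and Ssr1, were lowest in replicate 1. Ern1, with 6946 bases and a ratio of 0.343 on TPM + 1, lay at percentile 1.25 of the genes above 6000 bases. Ern2, with 2914 bases and a ratio of 0.518, lay at percentile 0.955 of the genes of above 2000 and up to 3000 bases, whose median was 0.891. The other 45 members lay at percentile 14.5 or higher for their length. Over all 47 the median percentile was 64.7, with 16 members above percentile 75 and 5 below percentile 25. Atf6 (ratio 0.691) and Tmed8 (0.630) lay at percentiles 46.6 and 31.5 of the genes above 6000 bases. Of the 10 markers of goblet and other secretory epithelium, Muc2 (627, 988 and 827 TPM), Spdef and Atoh1 were also lowest in replicate 1. Most went another way: Agr2, Klk1, Clca1, Tff3, Zg16 and Fcgbp were lowest in replicate 2, where Ern2 was highest, and Spink4 in replicate 3. The median of that list was 1181, 1033 and 1666 TPM, and its sum was highest in replicate 1 through Spink4, with 9335, 7640 and 5873 TPM. The part of these cells in the Ern2 values was not tested. The part of transcript length, RNA quality or library preparation in these values was not tested.

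**Figure D5:**
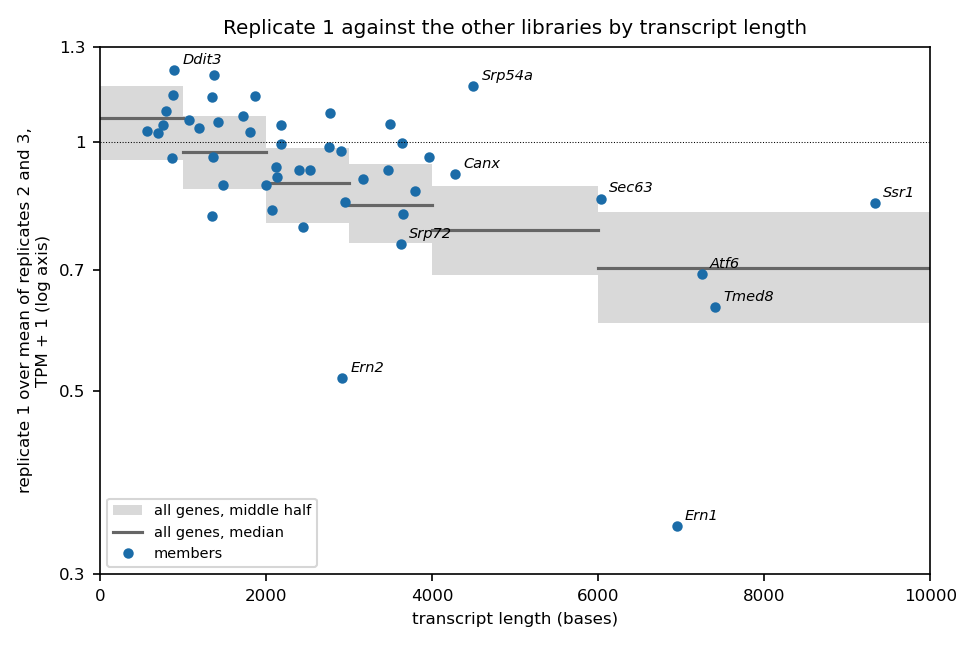
Ratio of replicate 1 to the mean of replicates 2 and 3 (TPM + 1, log axis) against transcript length in bases, for the 47 members with a mean of 1 TPM or more (points) and all such genes (line, median of a length class; grey band, 25th to 75th percentile). The ratio of all genes falls from 1.07 to 0.704 with length, and Ern1 (0.343) and Ern2 (0.518) lie below the band.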

How the data were processed

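RNA-seq of 3 libraries of 1 group was analysed from 1 deposited table per library. The authors deposited TPM values for 24091 genes by Entrez ID and symbol, per the file headers. The submitters' processing notes name mm10, Cell Ranger 6.0.1 and HTSeq. How TPM was computed, the annotation and strand use are not given in the sources used here, and 13 members overlap another protein-coding gene, 11 of them on the opposite strand. TPM keeps no depth, so no counting interval was computed.

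All 49 members matched RefSeq genes of GRCm38.p6 by Entrez ID, which gave coordinates. Coding and transcript lengths came from GENCODE M21 (APPRIS principal transcript, otherwise the longest coding one), since no protein table was used here, and the planned search of protein ends and active sites was not made. A gene passed at a TPM of 1 in every library, and log values used a pseudocount of 1. Named genes were all members, the 3 highest and the lowest of each partner list and a fixed set of partners, of which 1 gene is not reported here. The members and lists were chosen with earlier results of these data known. Alternatives were other thresholds (0.5 and 5), a pseudocount of 0.1, other scalings, means for medians, a ratio of 2, leaving out the Srp54 copies and leaving out each library. Steps were tested on simulated data. The immunoglobulin genes Igha and Igkc had no symbol match. Scripts ran in Python 3.11.15 with biopython 1.88, matplotlib 3.10.9, scipy 1.17.1, pandas 2.3.3 and numpy 2.4.6.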

Additional observations from a re-analysis of the deposited data

How the results depend on the processing

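No paired analysis was possible because the series has 1 group. Rescaling without ribosomal protein genes, which raised the median expressed gene by 0.34, 0.29 and 0.28 (log2) in replicates 1, 2 and 3, moved the members' share of TPM to 0.886% and their median to 125.8 TPM. It moved the role medians to 63.7 (SRP), 121 (translocon), 275 (TRAP), 89.2 (signal peptidase), 267 (OST), 124 (PDI family), 449 (lectin chaperones), 87.2 (p24) and 47.3 TPM (unfolded protein response), from 51.1, 97.4, 221, 71.5, 214, 99.5, 360.1, 70.0 and 38.0 TPM. The ribosomal protein genes held 22.1%, 19.0% and 18.3% of TPM in replicates 1, 2 and 3. Leaving them out multiplies every other gene of a library by the same factor, so these rises are fixed by the rescaling. Means in place of medians gave 72.1 (SRP), 183 (translocon), 228 (TRAP), 97.9 (signal peptidase), 246 (OST), 171 (PDI family), 92.8 (p24) and 77.9 TPM (unfolded protein response). Keeping only members at a TPM of 1 in all libraries gave a median of 113 TPM for the members and 164 TPM for the PDI family, by leaving out Pdia2 and other low genes. Summing the Srp54 copies, an alternative chosen after seeing the data, gave an SRP median of 80.2 TPM and a range of 3.38-fold, as did leaving them out (3.38-fold). Medians over libraries gave a signal peptidase range of 3.40-fold in place of 3.18-fold. Spcs3, the lowest of these genes, had 50.4, 58.5 and 50.5 TPM, so its median over libraries lay below its mean of 53.1 TPM. Leaving out each library in turn gave 0 to 3 members at a ratio of 1.5 or more, with 0 without replicate 1. The other results kept their direction under the alternatives run, and the difference of Ern2 and Ern1 ranged from 2.04 to 2.36 (log2) with a library left out, where the smallest possible p is 0.5. Median-of-ratios scaling moved the median expressed gene by 0.14, -0.08 and -0.08 (log2) in replicates 1, 2 and 3. TPM gives no depth, so how firmly the lowest values (Pdia2, Tmed8) were measured is unknown.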
